A study of Mus musculus with 9 samples.

Results

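A set of 10 genes known for the granule and Purkinje cells of the cerebellum was followed in brain RNA of 3 mouse genotypes. Its members were taken by name from the 54446 gene identifiers counted per library. The set comprised 5 granule cell genes (Cbln1, Cbln3, Gabra6, Fat2 and Barhl1), 4 Purkinje cell genes (Pcp2, Car8, Ppp1r17 and Slc1a6) and the regional transcription factor gene En2. Male mice of 3 to 4 months were heterozygous for Tfap2a (Tfap2a+/-), labelled heterozygous for Tfap2b (Tfap2b+/-) or wild type (B6N). Each genotype had 3 libraries of polyadenylated RNA, made from 20 to 80 mg of brain. Which brain part was sampled, how the alleles were built and whether the replicates were separate animals is not stated in the labels. The p-values therefore measure only how these samples scatter, and that scatter may be technical.

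Granule cells are the small, very numerous glutamatergic neurons of the cerebellar cortex, and their axons, the parallel fibres, synapse on Purkinje cells. Purkinje cells are large GABAergic neurons and the sole output of the cerebellar cortex. Granule cells release cerebellin 1, which bridges receptors on the parallel fibre and the delta glutamate receptor on the Purkinje cell. AP-2 beta, the product of Tfap2b, is known from GABAergic neurons of the cerebellum and from the dorsal midbrain.

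The libraries held 21946800 to 29214975 counts in genes, so the level of 3 counts, the most that a count of 0 allows, was 0.101 to 0.141 CPM. Such limits cover counting error only. CPM, a gene's count as a share of its library's total on a common scale, were scaled with TMM, a correction for differences in composition between libraries. The libraries differed in regional markers. Summed midbrain markers (8 genes) were 2.90 to 5.68 CPM in Tfap2a+/-, 20.5 to 90.0 CPM in the labelled Tfap2b+/- libraries and 2.82 to 24.9 CPM in wild type. In library 3 labelled Tfap2b+/- that sum, 20.7 CPM, was mostly Th at 17.6 CPM, while Pax7 was at 0 and En1, Gata3 and Sox14 were at 0.0377 CPM each. The same library had the highest olfactory bulb markers. The serotonin neuron and hindbrain list (10 genes) summed to 68.1 CPM in library 1 labelled Tfap2b+/- and to at most 2.30 CPM elsewhere, with 4 of the 10 at 0 in all libraries. Choroid plexus markers (6 genes) summed to 858 CPM in Tfap2a+/- library 1, 3091 CPM in wild-type library 2 and at most 291 CPM in the other libraries.

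The targeted gene Tfap2b stood at 1.88, 2.54 and 3.96 CPM in Tfap2a+/-, 32.9, 8.90 and 5.81 CPM in the labelled Tfap2b+/- libraries, and 2.25, 0.715 and 14.8 CPM in wild type. Its level was thus not lower in the group labelled for its loss (log2 fold 1.42 ± 0.98, SE, edgeR adjusted p = 0.60), so that group is named by its label here. The fold was 0.32 without library 1 of that group and 3.44 without wild-type library 3. Tfap2a was low, at 0.445, 0.223 and 0.461 CPM in Tfap2a+/-, 1.59, 0.674 and 0.113 CPM in the labelled Tfap2b+/- libraries and 0.610, 0.263 and 0.734 CPM in wild type. Its groups overlapped (Tfap2a+/- log2 fold -0.49 ± 0.80, SE, edgeR adjusted p = 0.999).

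The genes that define the 2 cerebellar cell types best were at or near 0 in all 9 libraries, so the cell type labels of this set were not borne out by its most specific members. Gabra6 (ENSMUSG00000020428.13, chromosome 11, 42306437 to 42321072) encodes the alpha 6 subunit of GABA-A receptors, which is made almost only by cerebellar granule cells. It had 0 counts in all Tfap2a+/- libraries and all labelled Tfap2b+/- libraries. In wild type it had 0, 0 and 2 counts. Pcp2 (ENSMUSG00000004630.18, chromosome 8, 3623371 to 3625545), a modulator of G protein signalling used as a Purkinje cell marker, had 0, 0 and 0 counts in Tfap2a+/-. It had 3, 3 and 3 counts in the labelled Tfap2b+/- libraries and 0, 0 and 1 in wild type. Over all 9 libraries these 2 genes had 12 counts, and neither exceeded 0.113 CPM in any library. Neither passed the filter on low counts, and no fold is given, since every group was at or below the level of 3 counts per library. Skor2, a Purkinje cell transcription factor gene, reached at most 0.176 CPM, and Tlx3, a homeobox gene of developing granule cells, at most 0.0386 CPM, both named after their values were seen.

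**Figure D1:**
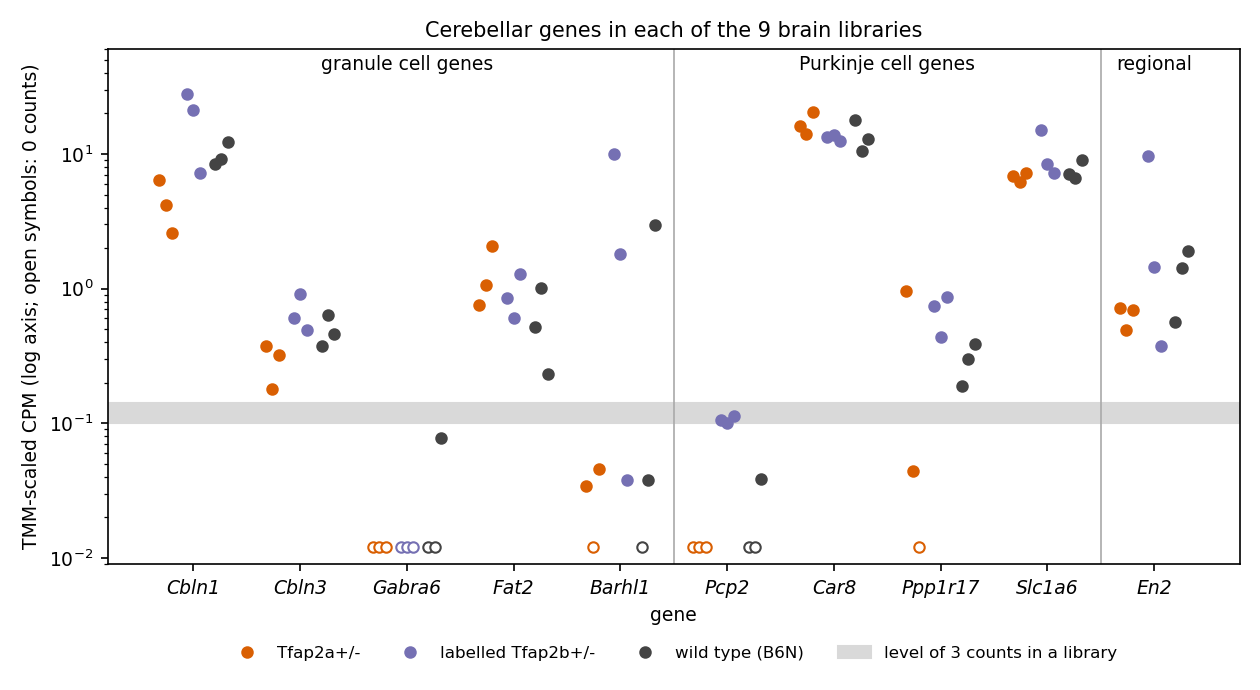
TMM-scaled CPM of the 10 genes on a log axis, 1 point per library, with Tfap2a+/-, labelled Tfap2b+/- and wild-type libraries from left to right within each gene. Open symbols at the bottom mark 0 counts and the grey band the level of 3 counts: Gabra6 and Pcp2 lie in or below it, while Cbln1, Car8 and Slc1a6 lie above 2 CPM in every library.

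Cbln1, Car8 and Slc1a6 made up most of the RNA of the set. On a scale of CPM per kilobase of exon, averaged over the 9 libraries, Slc1a6 stood at 3.81, Car8 at 3.81 and Cbln1 at 3.64. The next were En2 at 0.541, Barhl1 at 0.426 and Ppp1r17 at 0.248 CPM per kilobase. Cbln3 followed at 0.0995, Fat2 at 0.0642, Pcp2 at 0.0218 and Gabra6 at 0.00345 CPM per kilobase. The levels per kilobase of Slc1a6 (2.86 to 7.02), Car8 (2.75 to 5.36) and Cbln1 (0.849 to 9.22) overlapped across libraries. In all, 6 genes had 3 or more counts in every library.

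Among the granule cell genes, Cbln1 (ENSMUSG00000031654.16, chromosome 8, 87468405 to 87472609) encodes the secreted synaptic organiser cerebellin 1, which some thalamic neurons also make. It had 6.40, 4.19 and 2.58 CPM in Tfap2a+/- libraries 1 to 3, 28.0, 21.2 and 7.28 CPM in the labelled Tfap2b+/- libraries, and 8.50, 9.18 and 12.2 CPM in wild-type libraries 1 to 3. All Tfap2a+/- values lay below all wild-type values, while library 3 labelled Tfap2b+/- lay below wild type and the other 2 above it. The Tfap2a+/- mean was 4.39 ± 1.92 CPM and the wild-type mean 9.98 ± 1.99 CPM (SD, n = 3). The log2 fold was -1.17 ± 0.48 (SE), which did not pass over all genes tested (edgeR adjusted p = 0.999). For the labelled Tfap2b+/- libraries, at 18.8 ± 10.6 CPM, the log2 fold was 0.92 ± 0.46 (edgeR adjusted p = 0.51). Thalamic markers were lower in Tfap2a+/- by fitted fold for 5 of 5 genes (median log2 fold -1.10, none called, 2 with groups that did not overlap). Of all genes tested, 48.2% had a higher fitted level in Tfap2a+/- and 9.17% had groups that did not overlap. Thalamic genes are not independent of each other in a bulk sample. The summed level of the thalamic markers was 145 to 221 CPM in Tfap2a+/-, 128 to 762 CPM in the labelled Tfap2b+/- libraries and 199 to 270 CPM in wild type. Rora, which is also in the list of further Purkinje cell genes, was the largest part of that sum. It had 110 to 201 CPM in Tfap2a+/-, 102 to 387 CPM in the labelled Tfap2b+/- libraries and 154 to 166 CPM in wild type. Its log2 fold in Tfap2a+/- was -0.15 ± 0.41 (SE). The part of the thalamic markers in the Cbln1 levels was not tested.

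Cbln3, whose product assembles with cerebellin 1 in granule cells, was low. It had 0.377, 0.178 and 0.322 CPM in Tfap2a+/-, 0.600, 0.910 and 0.490 CPM in the labelled Tfap2b+/- libraries, and 0.376, 0.640 and 0.463 CPM in wild type. The groups overlapped in both comparisons. Its log2 fold was -0.74 ± 0.42 in Tfap2a+/- and 0.43 ± 0.39 in the labelled Tfap2b+/- libraries (SE; edgeR adjusted p = 0.999 and 0.69). Fat2, a giant protocadherin of parallel fibres, went a different way from Cbln1 across libraries. It had 0.753, 1.07 and 2.07 CPM in Tfap2a+/-, 0.847, 0.607 and 1.28 CPM in the labelled Tfap2b+/- libraries, and 0.517, 1.02 and 0.232 CPM in wild type. Its highest library was Tfap2a+/- library 3, the lowest for Cbln1, and its lowest was wild-type library 3. The groups overlapped, with a log2 fold of 1.12 ± 0.58 in Tfap2a+/- and 0.62 ± 0.58 in the labelled Tfap2b+/- libraries (SE; edgeR adjusted p = 0.999 and 0.69). The first was 0.62 without Tfap2a+/- library 3, and leaving out wild-type library 2 or 3 gave 1.80 or 0.73. The second was 0.29 without library 3 labelled Tfap2b+/-, and leaving out wild-type library 2 or 3 gave 1.30 or 0.23.

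Barhl1 (ENSMUSG00000026805.14, chromosome 2, 28907679 to 28916668), a homeobox gene of granule cell precursors that is also used in the midbrain, was all but confined to 3 libraries. It had 10.0 CPM in library 1 labelled Tfap2b+/-, 1.82 CPM in library 2 of that group and 2.97 CPM in wild-type library 3. The other 6 libraries reached at most 0.0461 CPM, which is 1 or no count in each. These 3 libraries held 99.0% of its summed CPM, and they come from 2 genotypes. Summed over groups there were 2 counts in Tfap2a+/-, 339 in the labelled Tfap2b+/- libraries and 78 in wild type. The ratio of Tfap2a+/- to wild type was 0.0258, with an exact 95% interval for counting error alone of 0.00307 to 0.0963. That interval leaves out the spread between libraries, and Barhl1 was not called in Tfap2a+/- (edgeR adjusted p = 0.999) or in the labelled Tfap2b+/- libraries (log2 fold 1.96 ± 1.57, SE, edgeR adjusted p = 0.65). Without wild-type library 3 the fitted log2 fold of Tfap2a+/- turned to 0.32. Without library 1 labelled Tfap2b+/- the fold of that group was -0.11, and leaving out wild-type library 3 gave 7.27.

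RefSeq windows around the start sites (250 bases before to 50 after, GRCm38.p6) were matched by symbol for 6 of the 10 genes in the table of windows used here, which is not complete. They were searched on both strands for GCCNNNGGC, the palindromic core of the AP-2 consensus, which 16.6% of all 32851 windows of this length contain. The match is a description of letters, not a binding site. It was found in 1 of 2 windows of Barhl1, starting at position -182 from the start site, and in 1 of 4 windows of Pcp2, starting at position -65. No match lay in the windows of Cbln3, Gabra6, Fat2 and Slc1a6. Windows of Cbln1, Car8, Ppp1r17 and En2 were not analysed here. Both Barhl1 windows are shown because this gene separated the libraries most, with the Pcp2 window that holds the match. Capitals mark the match. The first is chr2:28916619-28916918, the second chr2:28912446-28912745 and the last chr8:3624987-3625286, all on the minus strand.
Barhl1 window at the annotated gene start: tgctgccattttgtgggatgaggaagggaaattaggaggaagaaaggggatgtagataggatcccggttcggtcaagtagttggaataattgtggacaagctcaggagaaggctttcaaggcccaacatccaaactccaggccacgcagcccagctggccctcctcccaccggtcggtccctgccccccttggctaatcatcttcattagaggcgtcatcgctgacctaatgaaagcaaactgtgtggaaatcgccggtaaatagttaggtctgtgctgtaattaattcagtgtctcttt
Barhl1 internal window: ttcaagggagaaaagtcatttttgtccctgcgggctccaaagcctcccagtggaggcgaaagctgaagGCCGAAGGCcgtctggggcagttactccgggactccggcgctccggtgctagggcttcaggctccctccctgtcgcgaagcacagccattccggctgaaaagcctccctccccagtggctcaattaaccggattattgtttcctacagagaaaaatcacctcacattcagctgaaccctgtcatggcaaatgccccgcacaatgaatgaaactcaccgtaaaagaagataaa
Pcp2 internal window: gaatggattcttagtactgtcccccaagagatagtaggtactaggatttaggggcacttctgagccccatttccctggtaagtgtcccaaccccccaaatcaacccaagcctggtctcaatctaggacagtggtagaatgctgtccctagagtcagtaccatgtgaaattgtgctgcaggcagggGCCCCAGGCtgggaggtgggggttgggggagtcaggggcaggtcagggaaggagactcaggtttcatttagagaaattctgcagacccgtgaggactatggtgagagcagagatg

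Among the Purkinje cell genes, Car8 (ENSMUSG00000041261.9, chromosome 4, 8143362 to 8239041) varied least. It encodes a carbonic anhydrase relative without enzyme activity that binds the inositol trisphosphate receptor. Car8 had 16.1, 14.0 and 20.6 CPM in Tfap2a+/-, 13.4, 13.7 and 12.5 CPM in the labelled Tfap2b+/- libraries, and 18.0, 10.6 and 13.0 CPM in wild type. All 9 libraries lay within a 1.94-fold range and the groups overlapped. Its log2 fold was 0.29 ± 0.20 in Tfap2a+/-, with a 95% interval from -0.17 to 0.75. In the labelled Tfap2b+/- libraries it was -0.07 ± 0.20, with an interval from -0.53 to 0.39 (SE; edgeR adjusted p = 0.999 and 0.92). The second turned to 0.16 without wild-type library 1.

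Slc1a6 (ENSMUSG00000005357.9, chromosome 10, 78780496 to 78814765) encodes EAAT4, the glutamate transporter of Purkinje cell spines. It had 6.85, 6.15 and 7.19 CPM in Tfap2a+/-, 15.1, 8.49 and 7.20 CPM in the labelled Tfap2b+/- libraries, and 7.14, 6.59 and 9.07 CPM in wild type. Library 1 labelled Tfap2b+/- stood above the rest, at 2.06 times the mean of the other 8, and the groups overlapped. The log2 fold was -0.18 ± 0.27 in Tfap2a+/- and 0.43 ± 0.26 in the labelled Tfap2b+/- libraries (SE; edgeR adjusted p = 0.999 and 0.56). Ppp1r17, an inhibitor of protein phosphatases first described as a substrate of cGMP-dependent kinase in Purkinje cells, is also known from the hypothalamus. It had 0.959, 0.0446 and 0 CPM in Tfap2a+/-, 0.741, 0.438 and 0.867 CPM in the labelled Tfap2b+/- libraries, and 0.188, 0.301 and 0.386 CPM in wild type. All labelled Tfap2b+/- libraries lay above all wild-type libraries, while Tfap2a+/- library 1 was the highest of the 9 and its 2 companions the lowest. The log2 fold was 1.19 ± 0.999 in the labelled Tfap2b+/- libraries and 0.28 ± 1.04 in Tfap2a+/- (SE; edgeR adjusted p = 0.66 and 0.999). The second turned to -3.44 without Tfap2a+/- library 1.

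En2 (ENSMUSG00000039095.8, chromosome 5, 28165694 to 28172166) encodes engrailed 2, a homeobox factor that patterns the midbrain and cerebellum and persists in adult neurons of both. It had 0.719, 0.490 and 0.691 CPM in Tfap2a+/-, 9.63, 1.45 and 0.377 CPM in the labelled Tfap2b+/- libraries, and 0.564, 1.43 and 1.89 CPM in wild type. Library 1 labelled Tfap2b+/- alone held 55.9% of the summed CPM, and the lowest value of all lay in the same group. The log2 fold was -1.03 ± 1.02 in Tfap2a+/- and 1.55 ± 0.95 in the labelled Tfap2b+/- libraries (SE; edgeR adjusted p = 0.999 and 0.56). The second turned to -0.50 without library 1 of that group.

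No gene of the set was called in either genotype against wild type. The filter on low counts left 8 of the 10 genes among 17355 tested. None of the 8 passed an adjusted p of 0.05 in either comparison, where edgeR called 0% of all genes, and none was called under any alternative setting in which it was tested, DESeq2 included. DESeq2 called 30 genes of the whole table in Tfap2a+/- and 175 in the labelled Tfap2b+/- libraries. At an unadjusted p under 0.05 there was 1 gene of 8 in Tfap2a+/- (Cbln1), beside 3.84% of all genes tested, and 0 of 8 in the labelled Tfap2b+/- libraries, beside 10.6%. Groups did not overlap for 1 gene of 8 in Tfap2a+/-, Cbln1 on the lower side, beside 9.17% of all genes. In the labelled Tfap2b+/- libraries this held for 1 of 8, Ppp1r17 on the higher side, beside 16.5% of all genes. The 2 comparisons share the wild-type libraries. In bulk tissue, fewer cells of a type and less RNA per cell cannot be told apart.

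**Figure D2:**
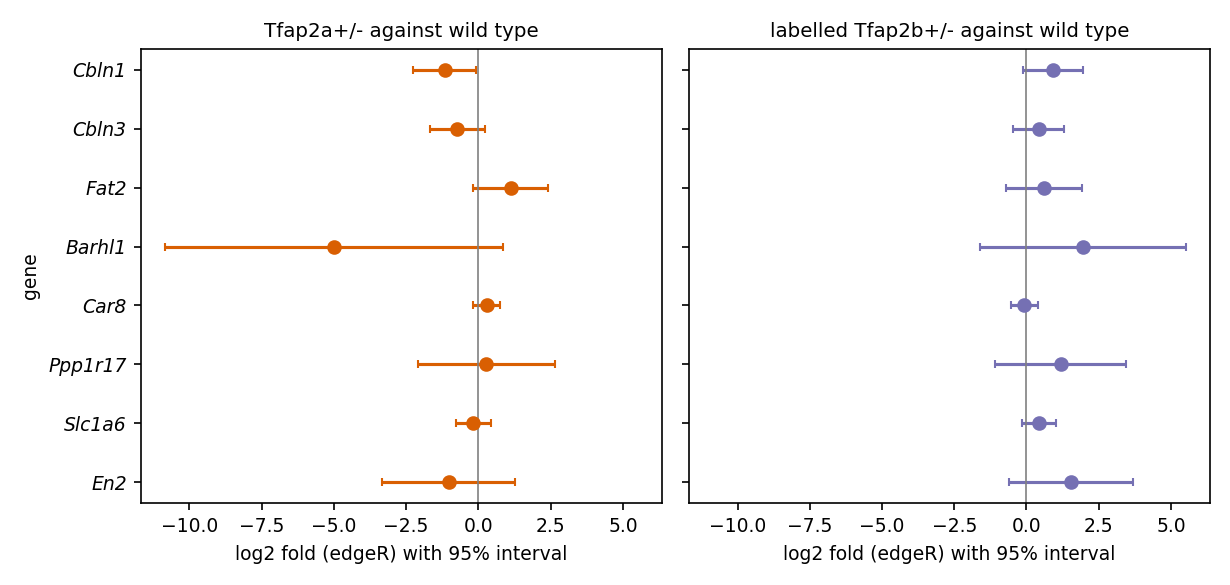
Log2 fold from edgeR with its 95% interval for the 8 genes tested, Tfap2a+/- against wild type on the left and labelled Tfap2b+/- against wild type on the right. The interval of Barhl1 is the widest, that of Car8 the narrowest, and only that of Cbln1 in Tfap2a+/- leaves out 0, by its unadjusted p.

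Granule and Purkinje genes were then set against each other. In Tfap2a+/- the 4 granule genes tested had a median log2 fold of -0.96, with 3 lower and 1 higher. Of these 4, Barhl1 and Cbln3 passed the filter only with the labelled Tfap2b+/- libraries in the fit. With Tfap2a+/- and wild type alone, Cbln1 and Fat2 were left, and the median was -0.028. The 3 Purkinje genes tested in Tfap2a+/- had a median of 0.28, with 1 lower and 2 higher, and without the labelled Tfap2b+/- libraries 2 of them were left, with a median of 0.058. In the labelled Tfap2b+/- libraries the medians were 0.77 (4 of 4 higher) and 0.43 (2 of 3 higher). Of all genes tested, 48.2% had a higher fitted level in Tfap2a+/- and 49.7% in the labelled Tfap2b+/- libraries. The median over all genes was -0.0064 in Tfap2a+/- and -0.0012 in the labelled Tfap2b+/- libraries. The Tfap2a+/- granule median was -0.23 without wild-type library 3, and its Purkinje median was -0.18 without Tfap2a+/- library 1. For each library the mean log2 deviation of all 5 granule genes from their 9-library means was set beside that of all 4 Purkinje genes. Each gene had equal weight in this score, and Gabra6 and Pcp2 entered it at or below 3 counts per library. Barhl1 varied widely, with an SD of 2.55 over the libraries, and Ppp1r17 had 28, 1 and 0 counts in Tfap2a+/-. Granule minus Purkinje came to -0.72, -0.16 and 0.11 in Tfap2a+/-, 0.70, 0.54 and -0.69 in the labelled Tfap2b+/- libraries, and -0.41, 0.13 and 0.50 in wild type. Each genotype held libraries on both sides of 0, and the within-group SD was 0.57 on this log2 scale. The difference in group means from wild type was -0.33 in Tfap2a+/- and 0.11 in the labelled Tfap2b+/- libraries, both smaller than that SD.

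**Figure D3:**
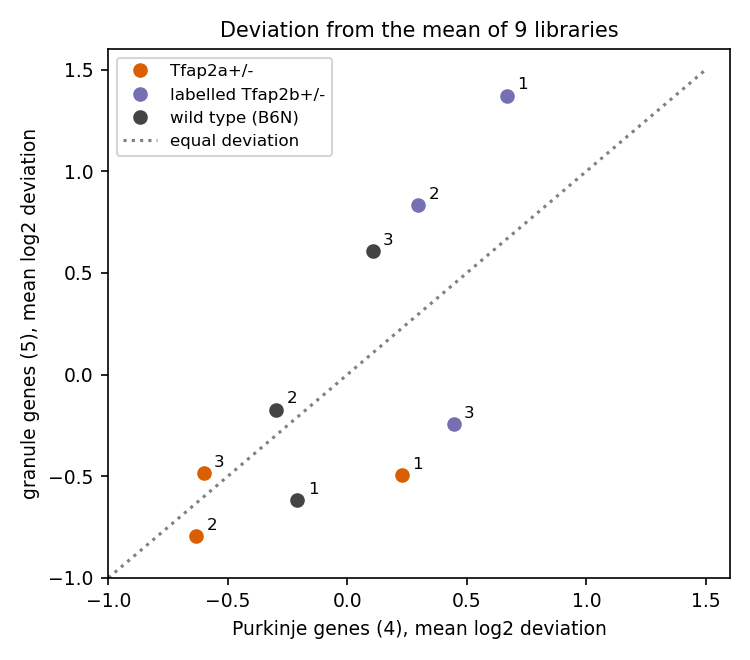
Mean log2 deviation of the 5 granule genes (vertical) against that of the 4 Purkinje genes (horizontal) in each library, numbered by replicate. Gabra6 and Pcp2, at or below 3 counts per library, are included with equal weight. The dotted line marks equal deviation: libraries 1 and 2 labelled Tfap2b+/- and wild-type library 3 lie furthest above it, while Tfap2a+/- library 1 and library 3 labelled Tfap2b+/- lie furthest below.

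The ratio of Cbln1 to Slc1a6, the most abundant granule gene and a Purkinje gene of like level, was also taken per library. It was 0.935, 0.681 and 0.359 in Tfap2a+/-, 1.85, 2.50 and 1.01 in the labelled Tfap2b+/- libraries, and 1.19, 1.39 and 1.35 in wild type. The values in Tfap2a+/- lay below those in wild type, and those labelled Tfap2b+/- lay on both sides. Slc1a6 itself ran from 6.15 to 7.19 CPM in Tfap2a+/- and from 6.59 to 9.07 CPM in wild type. The order of the ratio therefore largely repeats that of Cbln1 and is not a separate result. Slc1a6 to Car8, both Purkinje genes, ran from 0.348 to 0.438 in Tfap2a+/-, 0.577 to 1.13 in the labelled Tfap2b+/- libraries and 0.396 to 0.699 in wild type. The 2 Purkinje genes thus differed among libraries as well, and wild type overlapped both other groups.

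The targeted genes Tfap2b and Tfap2a followed the same libraries as part of the set. Library 1 labelled Tfap2b+/-, wild-type library 3 and library 2 labelled Tfap2b+/- were the 3 highest for Tfap2b and for Tfap2a, which was low. The same 3 were the highest for Cbln1, Barhl1, Slc1a6 and En2, which is 4 of the 8 genes tested, and for 3.37% of all genes tested. These 3 libraries were picked after the values of the set were seen, so that share is a description and not a test. Barhl1 reached 3 or more counts in those 3 libraries only, and passed the filter through them. The 3 libraries held 76.7% of the summed CPM of Tfap2b, 58.6% for Tfap2a, 75.2% for En2, 61.7% for Cbln1 and 44.3% for Slc1a6. For En2 and Tfap2a the third place rested on a small difference in counts. En2 had 43 counts (1.45 CPM) in library 2 labelled Tfap2b+/- and 38 counts (1.43 CPM) in wild-type library 2. Tfap2a had 20 counts (0.674 CPM) in library 2 labelled Tfap2b+/- and 13 counts (0.610 CPM) in wild-type library 1. Cbln3, Fat2, Pcp2, Car8 and Ppp1r17 had other orders.

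Midbrain transcription factor genes were high in the same libraries. Pax7, a paired box factor of the dorsal midbrain, had 16.5 and 5.86 CPM in libraries 1 and 2 labelled Tfap2b+/- and 8.50 CPM in wild-type library 3, against at most 0.0921 CPM in the other 6. Tal1, a factor of midbrain GABAergic neurons, had 18.4, 6.27 and 7.95 CPM in those 3 libraries and at most 2.63 CPM in the rest. Of the 8 midbrain markers, 5 had the same 3 highest libraries (En1, Pax7, Sox14, Gata3 and Tal1). Th, Slc6a3 and Pitx3, of dopamine neurons, did not. The part of these regional differences in the levels of Barhl1, En2, Cbln1, Slc1a6, Tfap2b and Tfap2a was not tested.

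**Figure D4:**
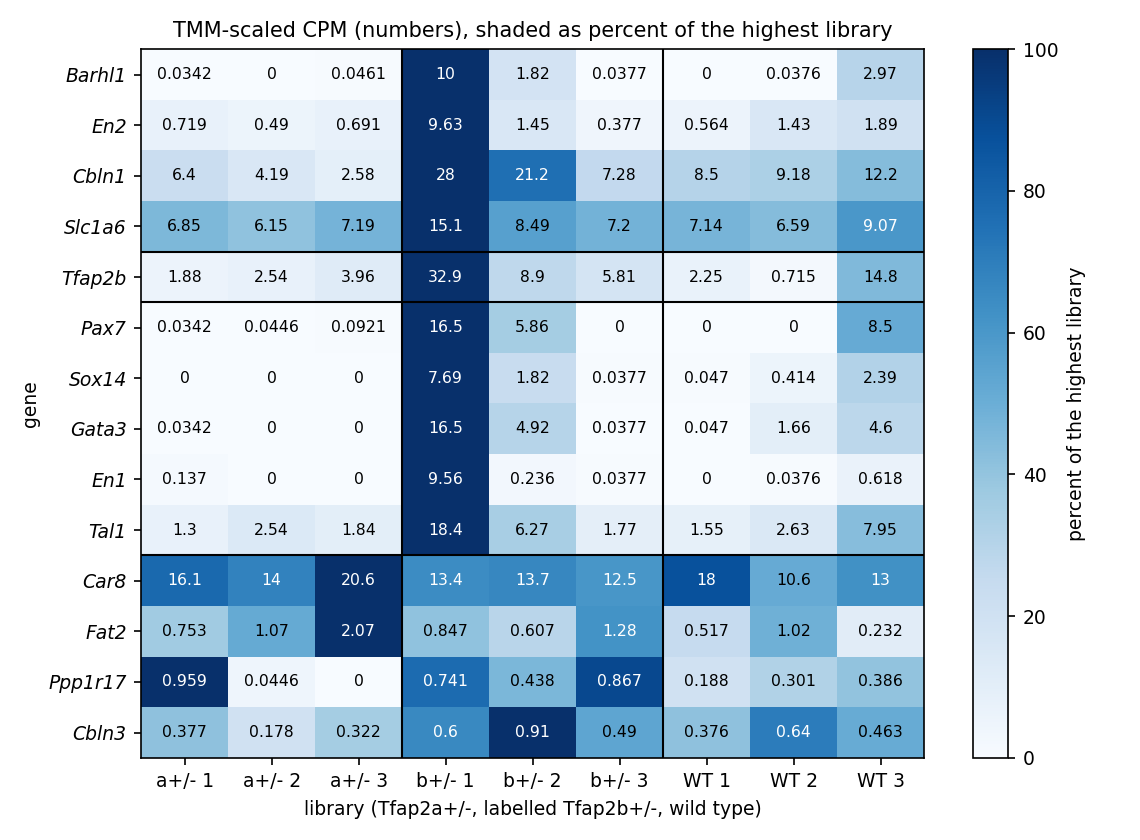
TMM-scaled CPM (printed numbers) of 8 of the set's genes, Tfap2b and 5 midbrain transcription factor genes in the 9 libraries, shaded as a percentage of each gene's highest library. The 3 libraries b+/- 1, b+/- 2 and WT 3 are the highest for every gene from Barhl1 down to Tal1, and not for Car8, Fat2, Ppp1r17 and Cbln3. For En2, b+/- 2 at 1.45 CPM is barely above WT 2 at 1.43 CPM.

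The genes with the most similar profiles were found by the root mean square difference of centred log2 CPM over the 9 libraries. Nearest to the mean profile of the granule genes were Gm4349 (0.27), Rassf4 (0.28), A330074K22Rik (0.28), Ccer2 (0.28) and Slc6a11, the GABA transporter GAT-3 (0.29). Nearest to the Purkinje profile were 2700054A10Rik (0.13), Mtss1 (0.17), Myt1 (0.18), Ebf4 (0.18) and N4bp2os (0.18). The profiles themselves had SDs of 0.71 and 0.43 over the libraries. Both weigh their genes equally, with Gabra6 and Pcp2 included at or below 3 counts per library, and the granule profile holds Barhl1. Asked of Barhl1 alone, a choice made after its values were seen, the nearest were Pou4f2 (0.36), Pax3 (0.67), Mab21l1 (0.68), Pax7 (0.75) and Sox14 (0.80), against an SD of 2.55 for Barhl1. Pou4f2, a POU factor best known from retinal ganglion cells, had 8.68 and 1.31 CPM in libraries 1 and 2 labelled Tfap2b+/- and 4.52 CPM in wild-type library 3, against at most 0.0461 CPM elsewhere.

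Further genes of the 2 cell types, many of them used elsewhere in the brain, ranged from near 0 (Tlx3 and Skor2) to the abundant genes given here, which are the highest of each list. Of 11 further granule cell genes 10 were tested, none was called in either direction, and the median log2 fold was 0.24 in Tfap2a+/- and 0.22 in the labelled Tfap2b+/- libraries. Zic1, a zinc finger factor of granule cells and their precursors, had 92.4, 20.8 and 16.9 CPM in Tfap2a+/-, 72.0, 99.96 and 48.9 CPM in the labelled Tfap2b+/- libraries, and 41.4, 36.5 and 25.3 CPM in wild type. All labelled Tfap2b+/- libraries lay above wild type (log2 fold 1.10 ± 0.60, SE, edgeR adjusted p = 0.53), while Tfap2a+/- lay on both sides. In the labelled Tfap2b+/- libraries such separation held for 2 of the 10 further granule genes tested, beside 16.5% of all genes. Chn2, a Rac GTPase-activating protein gene, averaged 49.4 ± 24.6 CPM in Tfap2a+/-, 51.5 ± 4.80 CPM in the labelled Tfap2b+/- libraries and 53.3 ± 7.54 CPM in wild type (SD, n = 3). Gabrd, whose delta subunit joins alpha 6 in granule cells and other alpha subunits in the forebrain, averaged 63.5 ± 8.63 CPM in Tfap2a+/-, 39.7 ± 19.8 CPM in the labelled Tfap2b+/- libraries and 44.0 ± 14.9 CPM in wild type. Gabrd was thus well expressed in libraries with at most 2 counts of Gabra6.

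Of 18 further Purkinje cell genes 17 were tested and none was called, with median log2 folds of -0.09 in Tfap2a+/- and 0.25 in the labelled Tfap2b+/- libraries. At an unadjusted edgeR p under 0.05 there were 3 of 17 in Tfap2a+/-, beside 3.84% of all genes tested. These were Calb1 (log2 fold 0.57), Foxp2 (0.70) and Homer3 (-1.66), named after their values were seen (edgeR adjusted p = 0.999 each). In the labelled Tfap2b+/- libraries there was 1 of 17, beside 10.6% of all genes tested. Itpr1, the inositol trisphosphate receptor that Car8 binds, averaged 895 ± 389 CPM in Tfap2a+/-, 799 ± 256 CPM in the labelled Tfap2b+/- libraries and 1030.5 ± 272 CPM in wild type (SD, n = 3). Aldoc, the zebrin II antigen of Purkinje cells and an astrocyte enzyme elsewhere, averaged 601 ± 52.1 CPM in Tfap2a+/-, 607 ± 149 CPM in the labelled Tfap2b+/- libraries and 609 ± 73.5 CPM in wild type. Neither was called, and their smallest edgeR adjusted p was 0.695. Lhx1, a LIM homeobox gene of Purkinje and midbrain neurons named here after its values were seen, had 10.1 and 2.46 CPM in libraries 1 and 2 labelled Tfap2b+/- and 2.47 CPM in wild-type library 3, against at most 1.23 CPM elsewhere.

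Partners and other cerebellar cells were examined last. Genes of molecular layer interneurons, Golgi cells, unipolar brush cells and Bergmann glia were tested for 9 of 11, with none called and medians of -0.26 in Tfap2a+/- and -0.08 in the labelled Tfap2b+/- libraries. The most abundant were Lgi2, Sorcs3 and Kit, all also used outside the cerebellum. Lgi2 averaged 123 ± 20.4 CPM in Tfap2a+/-, 138 ± 44.6 CPM in the labelled Tfap2b+/- libraries and 112 ± 9.69 CPM in wild type (SD, n = 3). Of the 7 cerebellins and cerebellin receptors tested, none was called in either comparison. The 4 GABA-A subunits that assemble with alpha 6 were not called either, with medians of 0.13 in Tfap2a+/- and 0.07 in the labelled Tfap2b+/- libraries.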

How the data were processed

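Each library came with deposited read counts per gene, whole numbers in STAR's gene count format. Tools listed in the submitters' processing notes are edgeR, cutadapt 2.4 and STAR 2.6.1d, with the build GRCm38.p6 and no annotation release. Reverse-strand counts were used, since the kit marks the strand with dUTP. Rows that name no gene (15.5% to 19.7% of fragments) stayed out. Of 54446 identifiers, 54409 matched GENCODE M21 without versions. Reads at several genomic positions were not counted. After filterByExpr, genes were scaled with TMM and tested by the quasi-likelihood F-test of edgeR 4.0.16 (R 4.3.3) over all 9 libraries, genotype as the only term and Benjamini-Hochberg adjustment over all genes. Log2 CPM used a prior count of 2. Replicate pairs differed by more than sampling noise (chi-square per degree of freedom of 20.6 or more).

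The members and lists were chosen with earlier results of these data known. Named genes are the 10 members, both targets, up to 3 genes of highest mean CPM from each further list and the 5 nearest to each profile, and any others were named after their values were seen. Some genes that this rule names are not reported here. Of the regional lists only midbrain genes are given singly, and lists of cortex, striatum, thalamus and olfactory bulb are given in the closing section. Alternatives were DESeq2 1.42.0, its size factors, other filters, unstranded counts, a replicate block, fewer genotypes, a robust fit and libraries left out.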

Additional observations from a re-analysis of the deposited data

How the results depend on the processing

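No fold of the 8 genes was called under any setting in which it was tested. The number of genes called in the whole table was 0 in both comparisons in the main edgeR fit. With DESeq2 it was 30 in Tfap2a+/- and 175 in the labelled Tfap2b+/- libraries, and with no filter on low counts 2 in Tfap2a+/-. With single libraries left out it was 0 to 3 in Tfap2a+/- and 0 to 4 in the labelled Tfap2b+/- libraries. The causes were not tested. The replicate numbers did not pair the libraries (correlations of same-numbered deviations from -0.35 to 0.34 over 9 pairs, with 6 of 18 best matches on the own number). With the replicate block the Purkinje median in Tfap2a+/- was -0.18 and the fold of Ppp1r17 -0.22. With only the 2 genotypes compared the granule median in Tfap2a+/- was -0.028, over 2 genes. With no filter the Purkinje median in the labelled Tfap2b+/- libraries was 0.80, over 4 genes. With single libraries left out, the granule median ran from -1.26 to -0.23 in Tfap2a+/-, and the Purkinje median from -0.18 to 0.40 in Tfap2a+/- and, for the labelled Tfap2b+/- libraries, from 0.053 to 0.63. Over the same settings the log2 folds that turned sign in Tfap2a+/- ran from -5.56 to 0.32 for Barhl1, -3.44 to 0.82 for Ppp1r17 and -1.62 to 0.93 for Tfap2b. Those of the labelled Tfap2b+/- libraries ran from -0.11 to 7.27 for Barhl1, -0.22 to 0.16 for Car8, -0.50 to 2.08 for En2 and -0.41 to 1.07 for Tfap2a. A further 2 settings were chosen after seeing the data. Leaving out Tfap2a+/- library 1, library 1 labelled Tfap2b+/- and wild-type library 2 gave 2 calls in the labelled Tfap2b+/- libraries and Purkinje medians of -0.28 in Tfap2a+/- and -0.040 in the labelled Tfap2b+/- libraries. Ppp1r17 was then -3.42 in Tfap2a+/-, and in the labelled Tfap2b+/- libraries Barhl1 was -0.67, Slc1a6 -0.040, En2 -0.42, Tfap2a -0.74 and Tfap2b -0.21. Leaving out library 1 labelled Tfap2b+/- and wild-type library 3 gave 0.93 for Tfap2b in Tfap2a+/-, and -0.12 for En2 and -0.10 for Tfap2a in the labelled Tfap2b+/- libraries. Depth limits any fold of Gabra6 and Pcp2, whose counts were at or below 3 per library.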

Other observations

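Markers of other regions differed among the same libraries. Cortex and hippocampus markers (5 genes) summed to 279 to 447 CPM in Tfap2a+/-, 150 to 392 CPM in the labelled Tfap2b+/- libraries and 305 to 472 CPM in wild type, lowest in library 1 labelled Tfap2b+/-. Libraries 2 and 1 labelled Tfap2b+/-, with 762 and 422 CPM, were the highest for thalamic markers and also for Cbln1. Of these thalamic sums, Rora made up 387 and 219 CPM. Striatal markers (5 genes) summed to 530 to 1565 CPM in Tfap2a+/-, 132 to 435 CPM in the labelled Tfap2b+/- libraries and 187 to 549 CPM in wild type. Olfactory bulb markers (4 genes) summed to 124 CPM in library 3 labelled Tfap2b+/- and at most 18.7 CPM elsewhere.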
